A study of Arabidopsis thaliana with 9 samples.

Results

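The chloroplast genome of Arabidopsis thaliana carries, beside its photosynthesis genes, the genes of its own expression machinery and a few genes of other functions. Of the 37336 genes in the deposited table, 33 were taken here by their locus identifiers. They comprised 13 rps genes for proteins of the small ribosomal subunit, 9 rpl genes for proteins of the large subunit, and the 4 rpo genes of the plastid RNA polymerase. The other 7 were matK, accD, cemA, ccsA, 1 copy of ycf1 and both copies of ycf2. The cluster of rpl33, rps18, rpl20 and the first exon of rps12 was not part of the group. Apart from leaving out that cluster, the rule goes by gene function, and it uses no measured value. The group was chosen with earlier results of these data known.

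Small RNA libraries were made from 25-day-old soil-grown plants kept in 16 h of light and 8 h of darkness, and another label gives their age as 26 days. There were 3 genotypes with 3 libraries each, Col-0 (LUC), prors1 (LUC) and rls6, and the design text asks how small RNA accumulates in the mutants compared with Col-0 (LUC). From 30 µg of total RNA, molecules of 17 to 30 nt were cut from a gel, so the values count small RNA reads that fall in a gene and do not measure its mRNA. Col-0 is the laboratory reference strain. The labels do not say what LUC marks, which lesion the mutants carry or whether rls6 also carries LUC, and the source label names the mutants rbp-ko-1 and rbp-ko-2 instead. Whether replicate libraries were made from different plants or pools is not stated in the labels. The p-values therefore speak only for the spread among these libraries, which may be technical. PRORS1 (AT5G52520), the organellar prolyl-tRNA synthetase gene that shares its name with a mutant, had 1 read in Col-0 (LUC) as a whole, 16 in prors1 (LUC) and 21 in rls6. Such reads do not check the genotypes.

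In the chloroplast, the rpo genes encode the core of a bacterial-type RNA polymerase that depends on nuclear-encoded sigma factors. Its products are translated on bacterial-type ribosomes whose proteins are encoded partly in the chloroplast and partly in the nucleus. Many of these genes lie in clusters that are transcribed together and then cut into smaller RNAs, and small RNAs from plastids are known to include stretches protected by bound proteins as well as fragments of RNA decay.

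Several of these genes exist as identical copies, and others overlap, which bears on what a read count at a gene means. The genes rpl2, rpl23, ycf2, rps7 and rps12 each lie on both arms of the inverted repeat, with 0 mismatches between the copies in the exons of the RefSeq TAIR10.1 chloroplast sequence. The first 60 bases of both rpl2 copies are shown because the reads divided so unevenly between them. The copy rpl2.1 lies on the minus strand (Pltd:85784-85843) and rpl2.2 on the plus strand (Pltd:152806-152865), with the first codon in capitals.
rpl2.1: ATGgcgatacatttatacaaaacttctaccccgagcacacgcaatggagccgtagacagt
rpl2.2: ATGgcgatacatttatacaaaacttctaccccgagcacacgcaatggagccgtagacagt
The start of ycf2 is the same in ycf2.1 (plus strand, Pltd:86474-86533) and ycf2.2 (minus strand, Pltd:152116-152175), again with the first codon in capitals.
ycf2: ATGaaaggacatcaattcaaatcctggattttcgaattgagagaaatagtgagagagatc
The coding sequences of rpl22 and rps3 share 16 bases, shown in capitals in the 60 bases around them (minus strand, Pltd:83445-83504). The molecules cut from the gel, of 17 to 30 nt, are longer than this stretch. A read that reaches into the stretch overlaps both genes, and how such reads were counted is not known.
rpl22 and rps3: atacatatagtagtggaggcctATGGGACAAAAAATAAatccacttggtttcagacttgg
The start of rpoA is shown as the gene with most reads of the group (minus strand, Pltd:78831-78890), with the first codon in capitals.
rpoA: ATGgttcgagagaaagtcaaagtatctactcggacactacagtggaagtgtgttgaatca

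The libraries held 611238 to 702303 reads over annotated genes. The 133 chloroplast genes together made up 2.43% to 4.59% of each library, and the 33 genes 0.394% to 0.892%. The deposited values, here termed normalized reads, are counts after division by the size factor of the library. Values per library are given in the order of replicates 1, 2 and 3, and means carry their SD with n = 3 libraries.

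All 33 genes had reads. Of these, 29 were above 0 in every library, and 26 passed the filter for testing, a minimum of 10 normalized reads in 3 or more libraries. The filter can be met by 1 genotype alone, so the tested genes are not a sample of all 33. Of the 26, 6 reached 10 normalized reads in fewer than 3 Col-0 (LUC) libraries and passed only with the mutant libraries, in which they were higher. These were rpl16 and rpl36, with 0 such Col-0 (LUC) libraries, rpl14, rps7.2 and ycf2.2 with 1, and rps19 with 2, and their calls are a description. The 7 that did not pass were rps2, rps15, rpl32 and the minus-strand copies rpl2.1, rpl23.1, rps7.1 and rps12C. Over the 9 libraries, rps2 had 60 reads, rps15 had 44 and rpl32 had 64. Of the rps2 sequence, 52.8% of 21-base windows also occur in the nuclear or mitochondrial chromosomes, so how its reads were assigned affects its count.

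Summed over the 33 genes, small RNA was higher in both mutants. The sum was 2253, 2223 and 2803 normalized reads in the Col-0 (LUC) libraries, 5329, 3736 and 4547 in those of prors1 (LUC) and 5183, 5542 and 5741 in those of rls6. Every mutant library lay above every Col-0 (LUC) library, and prors1 (LUC) replicate 2 was the lowest mutant library. The means were 2426 ± 327, 4537 ± 796 and 5488 ± 283. The genes outside the group moved in a similar way: the 55 other chloroplast protein genes summed to 7506 ± 709, 12884 ± 2422 and 15696 ± 595 normalized reads. The group's share of all chloroplast protein-gene reads was 24.4% ± 0.724 for Col-0 (LUC), 26.1% ± 0.495 for prors1 (LUC) and 25.9% ± 0.747 for rls6. Reads of mitochondrial genes stayed between 0.374% and 0.483% of a library. More chloroplast RNA in a sample and more small RNA per chloroplast transcript cannot be told apart in these libraries.

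**Figure D1:**
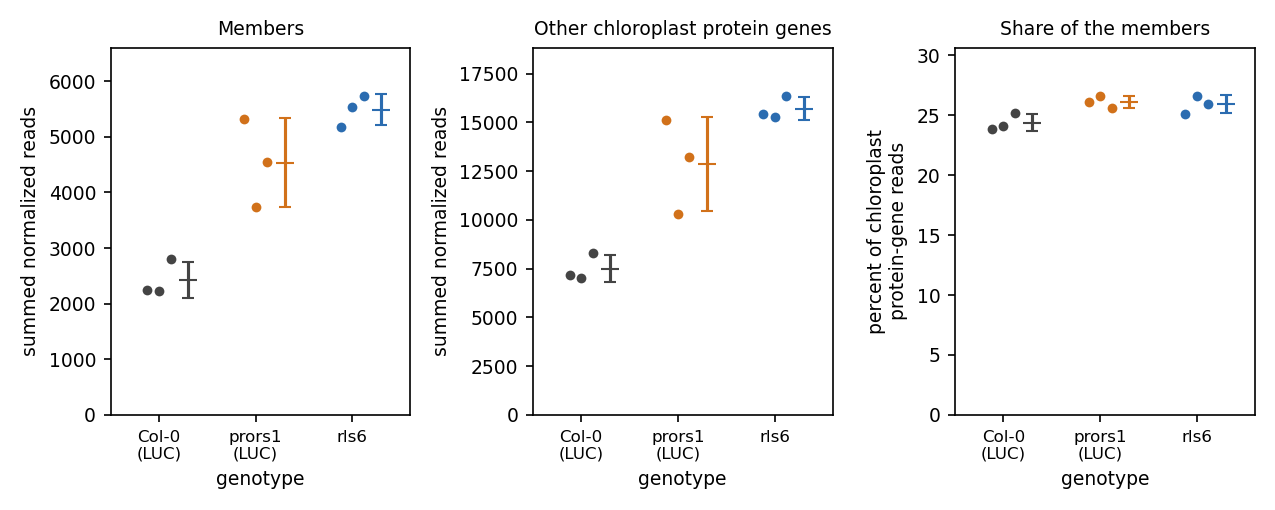
Summed normalized reads per library of the 33 genes (left) and of the 55 other chloroplast protein genes (middle), and the percent of all chloroplast protein-gene reads that fell in the 33 genes (right), by genotype. Points are libraries and bars are the mean ± SD; both sums are higher in the mutants, while the share lies between 23.8% and 26.6% in all 9 libraries.

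The reads were concentrated in few genes. The polymerase subunit gene rpoA held 29.5% of the group's reads over the 9 libraries, ycf2.1 held 16.5%, cemA 9.68% and accD 6.25%, together 62.0%. Set per kb of exon, rpoA led with 1236 normalized reads per kb as the mean of 9 libraries, the 6th highest of the chloroplast protein genes. The next were cemA at 581 and rps14 at 541 normalized reads per kb. The lowest of the tested genes in Col-0 (LUC) was ycf2.2, with 1.4 normalized reads per kb. The median over the 9 genes on the plus strand was 93.7 normalized reads per kb and over the 24 on the minus strand 43.5. The same order held outside the group, with medians of 282 per kb over 22 plus-strand genes and 125 over 30 minus-strand genes. The minus-strand genes include rpl2.1, rpl23.1, rps7.1, rps12C and ycf2.2, and outside the group a copy of ndhB. These are identical copies whose pairs were counted almost wholly at the plus-strand copy. The medians by strand therefore also depend on how reads were divided between copies.

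**Figure D2:**
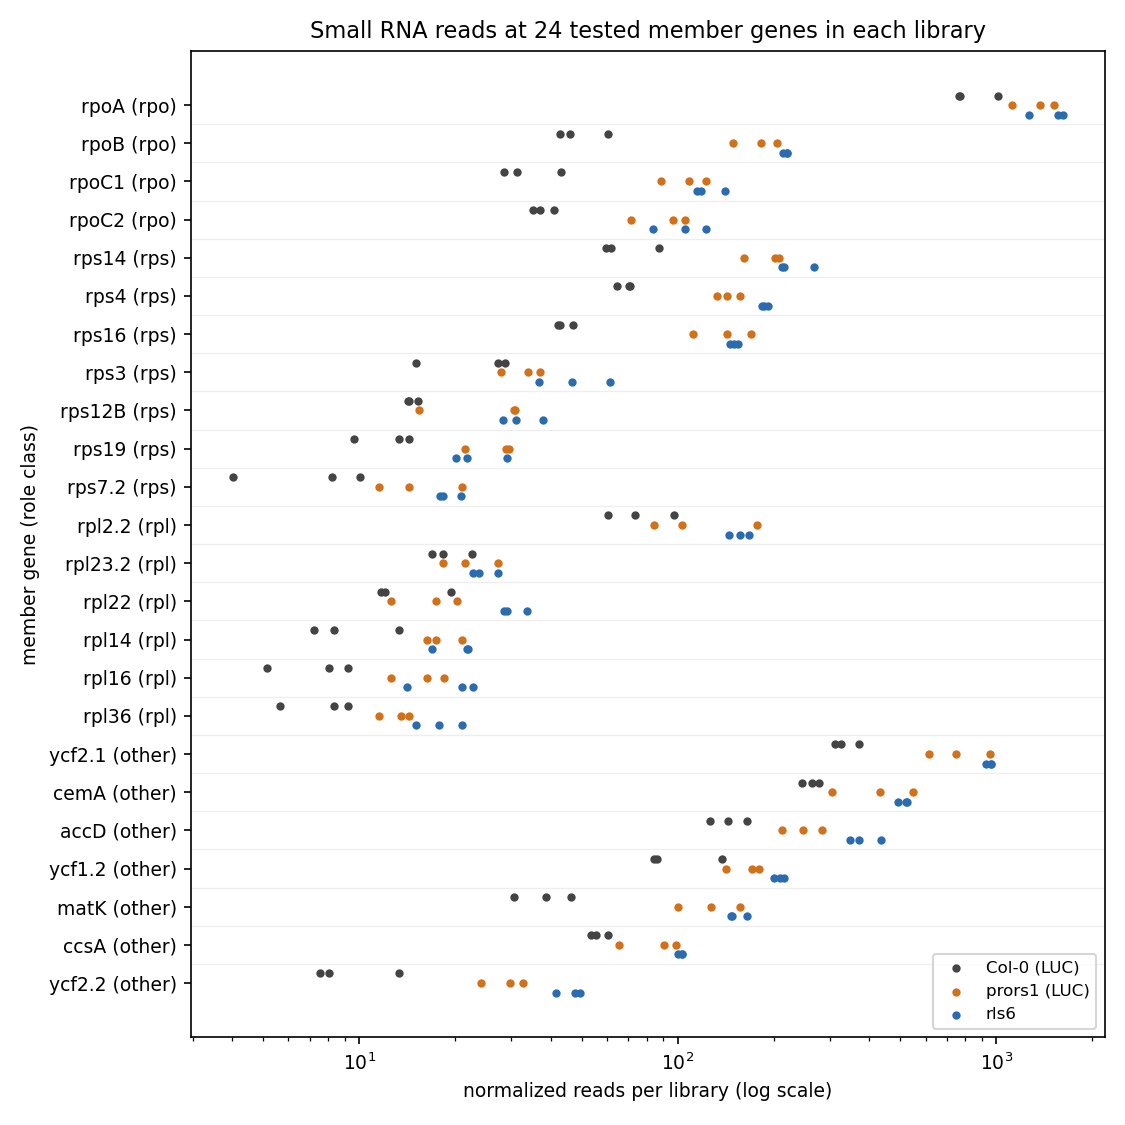
Normalized reads (x axis, log scale) of 24 tested genes in each of the 9 libraries, ordered by role and then by level, with colour for genotype. Levels run from 4.02 normalized reads for rps7.2 in 1 Col-0 (LUC) library to 1623 for rpoA in 1 rls6 library, and the rls6 points lie to the right of all Col-0 (LUC) points for all 24 genes drawn.

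In each of the 5 pairs of identical copies, nearly all reads were counted at the copy on the plus strand. The share of the pair's reads over 9 libraries was 98.0% for rpl2 (95% exact interval 97.0% to 98.7%), 97.7% for rpl23 (94.6% to 99.2%) and 96.1% for ycf2 (95.6% to 96.5%). It was 97.0% for rps7 (92.6% to 99.2%) and 98.3% for rps12 (95.6% to 99.5%). These intervals cover counting error only. The plus-strand copy is the one on the second arm for rpl2, rpl23, rps7 and rps12, and the one on the first arm for ycf2. The pair ndhB, outside the group, showed the same division, with 97.9% at its plus-strand copy (97.2% to 98.5%). Identical copies cannot be told apart by sequence. Settings for strand and for reads with several places were not stated in the labels or the table, so it is not known whether the reads at a gene are sense or antisense to it, and a change at 1 copy is a change of the pair as counted. The exons counted for rps12B and rps12C are also uncertain, since rps12 is spliced from separate transcripts.

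**Figure D3:**
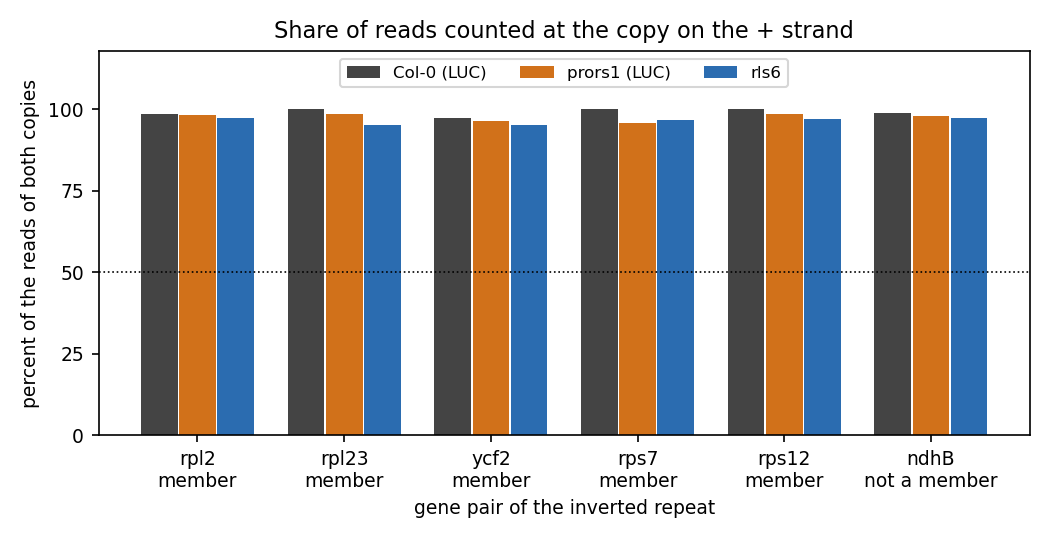
Percent of the reads of both copies that was counted at the plus-strand copy, for the 5 pairs of the group and for ndhB, with the reads of the 3 libraries of a genotype summed (bars, colour for genotype); the dotted line marks an equal division. All bars lie at 95.1% or above.

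In prors1 (LUC), 20 of the 26 tested genes had more small RNA than in Col-0 (LUC), 0 had less and 6 did not pass the test (limma, Benjamini-Hochberg adjusted p of 0.05 over all 4766 tested genes). Of all tested genes, 7.74% were called higher and 6.63% lower, 14.4% in either direction. The 26 log2 fold changes ran from 0.20 to 1.83 with a median of 0.83, against a median of 0.01 over all tested genes. The 52 tested chloroplast protein genes outside the group gave 38 higher, 2 lower and a median of 0.71, so the share called in either direction was 76.9% inside and outside the group. The libraries of the genotypes did not overlap for 21 of the 26, all higher in prors1 (LUC), where 14.3% of all tested genes were so placed. Among the 20 genes with 10 or more normalized reads in every Col-0 (LUC) library, 15 were higher, where 7.41% of all tested genes of that kind were. By edgeR 20 of the 26 were higher and by DESeq2 15, and without the variance trend in limma 13. Of all 4766 tested genes, these fits called 368, 205 and 233 higher, in the same order. At an unadjusted p under 0.05, limma, edgeR and DESeq2 each gave 0 of the 26 lower in either mutant.

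In rls6, 24 of the 26 had more small RNA than in Col-0 (LUC), 0 had less and 2 did not pass, beside 12.7% of all tested genes called higher and 4.95% lower (17.6% in either direction). The log2 fold changes ran from 0.35 to 2.19 with a median of 1.11, against -0.02 over all tested genes. Outside the group, 47 of 52 chloroplast protein genes were called higher and 3 lower, and their median was 1.09. All 26 genes were higher in each rls6 library than in any Col-0 (LUC) library, where 18.2% of all tested genes were so placed. Among the 20 genes with 10 or more in every Col-0 (LUC) library, 18 were higher, where 11.9% of such tested genes were. By edgeR 24 of the 26 were higher and by DESeq2 22, where 621 and 469 of all 4766 tested genes were. With upper-quartile scaling the same 24 of 26 count was reached, while the calls over all genes went from 605 higher and 236 lower to 525 and 434. The 2 comparisons share the Col-0 (LUC) libraries, so they are not independent of each other.

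**Figure D4:**
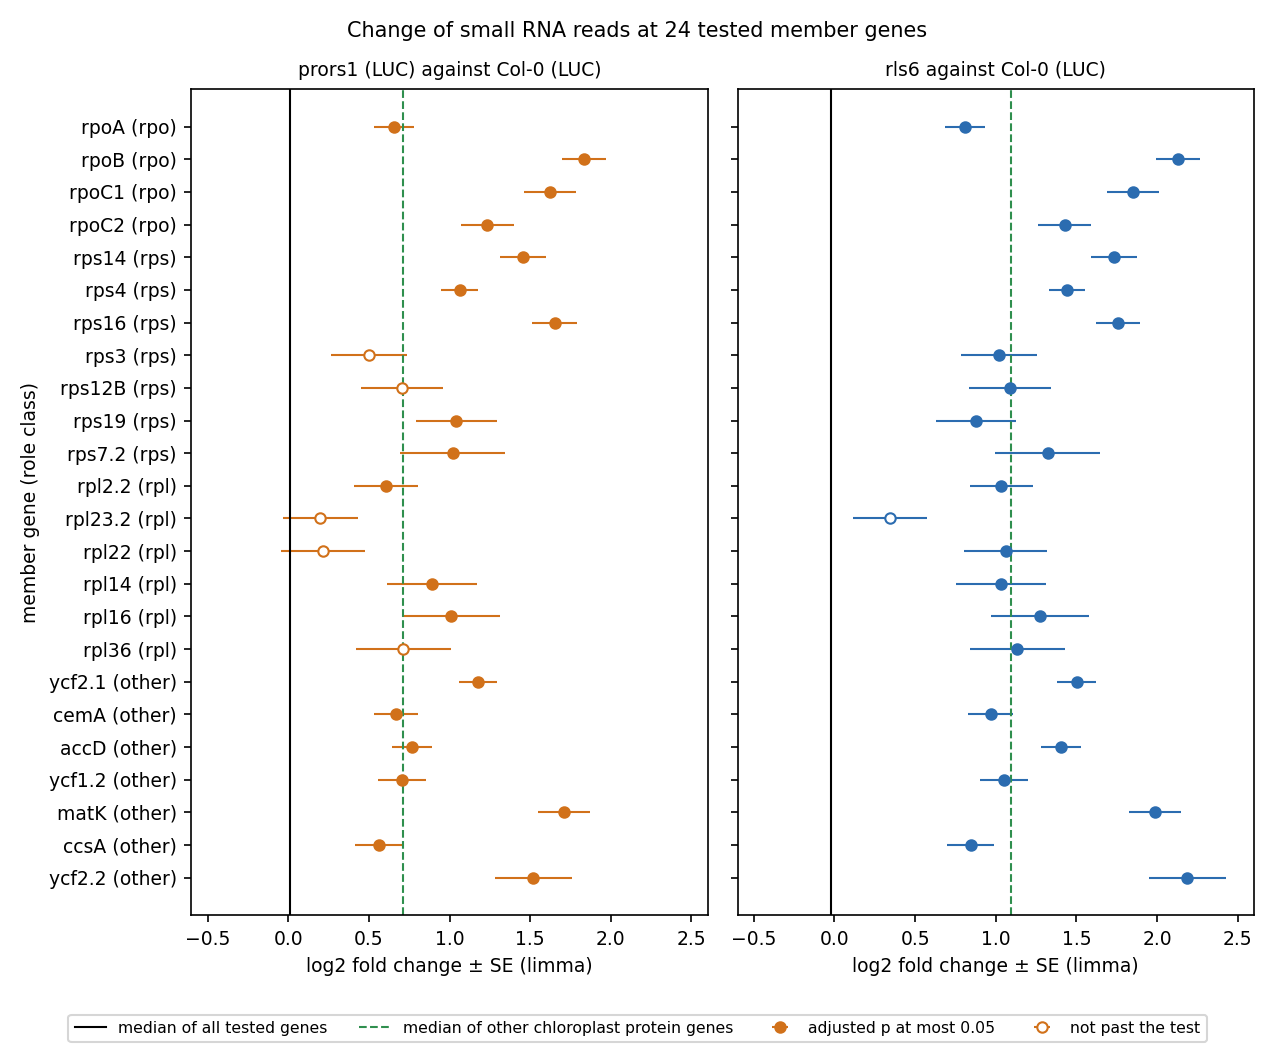
Log2 fold change ± SE (limma, x axis) of 24 tested genes in prors1 (LUC) (left) and rls6 (right) against Col-0 (LUC). Filled points have an adjusted p of at most 0.05; the solid line is the median of all tested genes and the dashed line that of the other chloroplast protein genes, 0.71 on the left and 1.09 on the right. All 24 estimates drawn lie to the right of the solid line in both panels.

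All 4 polymerase genes rose in both mutants, though rpoA lost its call in prors1 (LUC) without the variance trend (adjusted p = 0.0525). The gene rpoB (ATCG00190), for the β subunit, had 42.6, 45.8 and 60.5 normalized reads in the Col-0 (LUC) libraries, 205, 149 and 183 in those of prors1 (LUC) and 213, 221 and 220.0 in those of rls6. The 3 genotypes did not overlap, and Col-0 (LUC) was the low group. Its log2 fold change was 1.83 ± 0.14 (SE, adjusted p = 1.23e-09) in prors1 (LUC) and 2.13 ± 0.14 (adjusted p = 3.9e-11) in rls6, the largest of the rpo genes in each. The genes rpoC1 and rpoC2 encode the β′ and β″ subunits and follow rpoB in its cluster. For rpoC1 the log2 fold changes were 1.62 and 1.85, and for rpoC2 1.23 and 1.43, in prors1 (LUC) and rls6. In rpoC2, 26.2% of 21-base windows also occur in other chromosomes.

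The gene rpoA (ATCG00740), for the α subunit, lies elsewhere, at the end of a ribosomal protein cluster. It had 770.2, 765 and 1014 normalized reads in the Col-0 (LUC) libraries, 1519.5, 1118 and 1368 in those of prors1 (LUC) and 1269.8, 1623 and 1564 in those of rls6. The mutant libraries all lay above Col-0 (LUC), and the 2 mutants overlapped. The log2 fold changes of 0.65 ± 0.12 (adjusted p = 0.000708) and 0.81 ± 0.12 (adjusted p = 2.78e-05) were the smallest of the rpo genes. Per kb, Col-0 (LUC) had 858 normalized reads at rpoA and 15.4 at rpoB.

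Of the 9 tested rps genes, 6 rose in prors1 (LUC) and 8 in rls6. Both counts include rps7.2 and rps19, which met the filter only with the mutant libraries. The gene rps16 (ATCG00050) had 46.8, 42.6 and 42.0 normalized reads in the Col-0 (LUC) libraries, 170.5, 112 and 143 in those of prors1 (LUC) and 155, 146 and 151 in those of rls6. Both mutants lay far above Col-0 (LUC) and overlapped each other. Its log2 fold changes, 1.65 ± 0.14 (adjusted p = 7.82e-09) and 1.76 ± 0.14 (adjusted p = 9.79e-10), were the largest of the rps genes in both mutants.

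The gene rps14 (ATCG00330), which lies beside the photosystem I genes psaA and psaB, had 61.9, 59.5 and 87.1 normalized reads in the Col-0 (LUC) libraries, 208, 162 and 202 in those of prors1 (LUC) and 213, 215 and 268 in those of rls6. No libraries of different genotypes overlapped. The log2 fold change was 1.46 ± 0.14 (adjusted p = 1.01e-07) in prors1 (LUC) and 1.74 ± 0.14 (adjusted p = 2.02e-09) in rls6. The gene rps4 (ATCG00380), whose protein is an early binder in small-subunit assembly in bacteria, had 70.2, 64.3 and 70.7 in the Col-0 (LUC) libraries, 157, 133 and 143 in those of prors1 (LUC) and 191, 184 and 186 in those of rls6. Its groups were also separate, and it rose by 1.06 ± 0.11 (adjusted p = 3.2e-07) and 1.44 ± 0.11 (adjusted p = 8.49e-10) on the log2 scale.

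The genes rps3 and rps12B passed in rls6, at 1.02 and 1.09, but not in prors1 (LUC), at 0.50 (adjusted p = 0.184) and 0.70 (adjusted p = 0.0679). The gene rps7.2 rose by 1.02 in prors1 (LUC) and 1.32 in rls6, and rps19 by 1.04 and 0.88. Both met the filter only with the mutant libraries, so their calls are a description. In prors1 (LUC) the call of rps7.2 was lost without replicate 2 or 3 of Col-0 (LUC) or replicate 1 or 3 of either mutant. The adjusted p was then 0.0504 to 0.182. That call was also lost with no filter (adjusted p = 0.0592) and without the trend (0.0641). The same held with only those 2 genotypes fitted (0.0814) and by DESeq2 (0.162). In rls6 the call of rps19 was lost without Col-0 (LUC) replicate 2 or rls6 replicate 2, with adjusted p of 0.0625 to 0.103. It was also lost with no filter (0.0537) and by DESeq2 (0.0806).

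Of the 6 tested rpl genes, 3 rose in prors1 (LUC) and 5 in rls6. The counts include rpl14 and rpl16 in both mutants and rpl36 in rls6. These met the filter only with the mutant libraries, so their calls are a description. The gene rpl16 (ATCG00790) had 9.2, 8.03 and 5.12 normalized reads in the Col-0 (LUC) libraries, 12.6, 16.4 and 18.5 in those of prors1 (LUC) and 21.1, 14.1 and 22.8 in those of rls6. The mutants lay above Col-0 (LUC), from at most 11 reads in a Col-0 (LUC) library. Its log2 fold changes were 1.01 ± 0.30 and 1.27 ± 0.30, the largest of the rpl genes. As it passed the filter through the mutant libraries alone, the p-values given here are those of the fit with no filter, 0.0612 in prors1 (LUC) and 0.00297 in rls6 (limma, adjusted). Those of filtered fits given below describe only how its call changed with the setting.

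The gene rpl23.2 (ATCG01300), whose bacterial counterpart lies at the exit of the peptide tunnel, had 18.4, 16.9 and 22.5 normalized reads in the Col-0 (LUC) libraries, 27.4, 18.3 and 21.5 in those of prors1 (LUC) and 23.8, 27.3 and 22.8 in those of rls6. The prors1 (LUC) and Col-0 (LUC) libraries overlapped. Its values of 0.20 ± 0.23 (adjusted p = 0.663) and 0.35 ± 0.23 (adjusted p = 0.359) did not pass. For rpl2.2 (ATCG01310), whose protein forms part of the peptidyl transferase region in bacteria, Col-0 (LUC) gave 73.6, 60.3 and 97.4 and prors1 (LUC) 178, 103 and 84.1 normalized reads. These groups overlapped, with prors1 (LUC) replicate 1 far above the other two of its genotype. In rls6 it had 145, 156 and 168, all above Col-0 (LUC).

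Of the 3 rpl calls in prors1 (LUC), each was lost when certain single libraries were left out. The call of rpl2.2 (log2 fold change 0.61, adjusted p = 0.0414) was lost without replicate 1 or 2 of Col-0 (LUC), replicate 1 of prors1 (LUC), or any 1 rls6 library, with adjusted p of 0.0528 to 0.304. That of rpl16 was lost without replicate 3 of Col-0 (LUC) or replicate 2 or 3 of prors1 (LUC), with adjusted p of 0.0787 to 0.130. The filter was met by rpl14 only with the mutant libraries. Its call (log2 fold change 0.89), a description, was lost without Col-0 (LUC) replicate 1 or 2 or any 1 prors1 (LUC) library. The adjusted p was then 0.0540 to 0.123. All 3 were also lost by DESeq2, with adjusted p of 0.0600 for rpl2.2, 0.160 for rpl16 and 0.182 for rpl14. With only the 2 genotypes fitted the adjusted p were 0.0945, 0.0526 and 0.0697. That of rpl2.2 was lost without the trend too (0.214) and with a filter on a mean of at least 30 normalized reads (0.0531), and that of rpl14 with no filter (0.111). In rls6, rpl14 had 1.03 (limma adjusted p = 0.0256 with no filter). There its call in the filtered fit was lost without rls6 replicate 1 (adjusted p = 0.0505) and by DESeq2 (0.0615). The gene rpl36, which also passed the filter only through the mutant libraries, had 1.13 ± 0.29 in rls6 and 0.71 ± 0.29 in prors1 (LUC), with limma adjusted p of 0.0185 and 0.483 in the fit with no filter.

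All 7 of the other genes rose in both mutants, but without the variance trend cemA (adjusted p = 0.0682), ccsA (0.0641) and ycf1.2 (0.0572) lost their calls in prors1 (LUC). Among the 7, ycf2.2 met the filter only with the mutant libraries, so its calls are a description. The gene matK (ATCG00040), for an intron maturase and located in the intron of a lysine tRNA gene, had 38.5, 30.5 and 46.1 normalized reads in the Col-0 (LUC) libraries, 157, 100.2 and 127 in those of prors1 (LUC) and 147, 148 and 166 in those of rls6. Both mutants lay far above Col-0 (LUC) and overlapped each other. These correspond to log2 fold changes of 1.71 ± 0.16 (adjusted p = 5.15e-08) and 1.99 ± 0.16 (adjusted p = 1.42e-09).

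The gene accD (ATCG00500), for a carboxyltransferase subunit of the acetyl-CoA carboxylase of fatty acid synthesis, had 144, 126 and 165 normalized reads in the Col-0 (LUC) libraries, 283, 212 and 248 in those of prors1 (LUC) and 347, 371 and 435 in those of rls6. The groups were separate in the order Col-0 (LUC), prors1 (LUC), rls6. It rose by 0.77 ± 0.12 (adjusted p = 0.0001) and 1.40 ± 0.12 (adjusted p = 5.35e-09) on the log2 scale. The gene cemA (ATCG00530), for an inner envelope protein, had 263, 245 and 277 in the Col-0 (LUC) libraries, 547, 305 and 431 in those of prors1 (LUC) and 524, 493 and 520.3 in those of rls6. The mutants overlapped each other and lay above Col-0 (LUC), with prors1 (LUC) replicate 2 nearest to it. On the log2 scale cemA rose by 0.67 ± 0.14 (adjusted p = 0.00163) and 0.97 ± 0.14 (adjusted p = 1.04e-05).

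The gene ccsA (ATCG01040), needed for haem attachment to c-type cytochromes, had the smallest log2 fold changes of these 7. Its levels were 53.5, 55.4 and 60.5 normalized reads in the Col-0 (LUC) libraries, 98.9, 65.5 and 90.3 in those of prors1 (LUC) and 104, 99.9 and 103 in those of rls6. On the log2 scale ccsA rose by 0.56 ± 0.15 (adjusted p = 0.0113) and 0.85 ± 0.15 (adjusted p = 0.000128). The first call was lost without prors1 (LUC) replicate 1 or 3, with adjusted p of 0.0554 to 0.0772, and by DESeq2 (0.0621). The gene ycf1.2, whose protein is a component of the inner envelope protein translocon, rose by 0.70 ± 0.15 and 1.05 ± 0.15.

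The ycf2 pair encodes a component of the motor that draws proteins into the chloroplast. At ycf2.2 (ATCG01280), the minus-strand copy, Col-0 (LUC) had 7.53, 8.03 and 13.3 normalized reads, prors1 (LUC) 32.6, 24.1 and 29.7 and rls6 49.5, 41.5 and 47.6, in separate groups. The log2 fold changes were 1.52 ± 0.24 and 2.19 ± 0.24. As ycf2.2 met the filter only with the mutant libraries, its adjusted p are those of the limma fit with no filter. They were 1.07e-06 in prors1 (LUC) and 1.1e-14 in rls6. These p-values are not comparable with those of filtered fits. With no filter, limma gave ycf2.1 an adjusted p of 1.37e-53 in prors1 (LUC), against 1.52e-07 with it. For rps4 between the mutants it gave 0.235, against 0.022. The copy ycf2.2 held few of the reads of an identical pair. With the copies summed, in a filtered fit, the pair rose by 1.19 in prors1 (LUC) and 1.53 in rls6 (adjusted p = 1.26e-07 and 8.12e-10). At ycf2.1, which took nearly all reads of the pair, the log2 fold changes were 1.18 ± 0.12 (adjusted p = 1.52e-07) and 1.50 ± 0.12 (adjusted p = 1.05e-09). The plus-strand copy held 97.3% of the pair's reads for Col-0 (LUC), 96.4% for prors1 (LUC) and 95.4% for rls6.

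Within a cluster the log2 fold changes differed in size, and the differences between genes were not tested. In the order of transcription, rpoB, rpoC1 and rpoC2 had log2 fold changes of 1.83, 1.62 and 1.23 in prors1 (LUC). In rls6 they were 2.13, 1.85 and 1.43. Their SEs were between 0.14 and 0.16. In the cluster from rpl23 to rpoA, 9 of 11 genes were tested, of which 5 rose in prors1 (LUC) and 8 in rls6. Of all tested genes, 7.74% and 12.7% were called higher. The counts for the cluster include rps19, rpl16 and rpl14 in both mutants and rpl36 in rls6. These met the filter only with the mutant libraries, so their calls are a description. In Col-0 (LUC) the level there was 44.6 normalized reads per kb at rps19, 29.8 at rpl22, 36.1 at rps3, 18.3 at rpl16 and 26.1 at rpl14. Nearer the end of the cluster it was 67.9 at rpl36 and 858 at rpoA. The last gene thus had by far the highest level per kb, in all 3 genotypes.

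**Figure D5:**
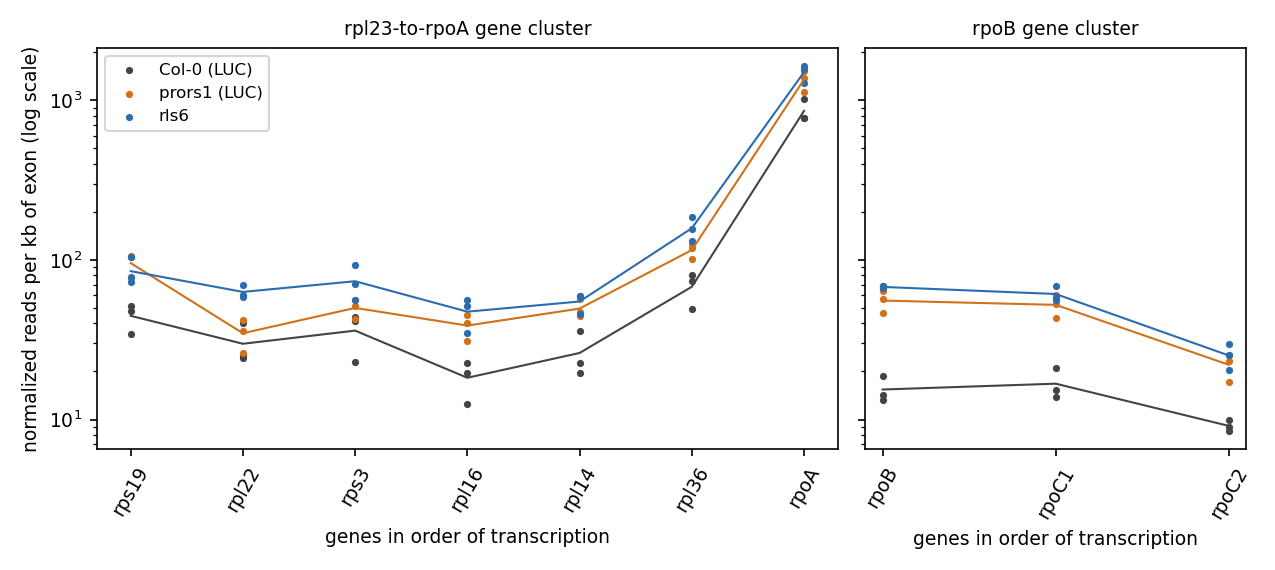
Normalized reads per kb of exon (y axis, log scale) of tested genes of the 2 clusters in their order of transcription, with points for libraries and lines for genotype means. In the rpl23-to-rpoA cluster (left) the level is highest at rpoA in every genotype; in the rpoB cluster (right) the Col-0 (LUC) level lies between 9.12 and 16.8 and both mutants lie above it.

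Between the mutants, 3 of the 26 genes (11.5%) were higher in rls6 than in prors1 (LUC) and 0 lower. Of all tested genes 11.7% were called higher and 5.16% lower, so the group's count was near the share of all tested genes. The 3 were accD at 0.64 ± 0.12 (adjusted p = 0.000573), rps4 at 0.38 ± 0.11 (adjusted p = 0.022) and rpl22 at 0.84 ± 0.26 (adjusted p = 0.0268) on the log2 scale. For rpl22 (ATCG00810), Col-0 (LUC) had 11.7, 12.1 and 19.5 normalized reads, prors1 (LUC) 12.6, 20.2 and 17.4 and rls6 28.4, 29.2 and 33.7. The rls6 libraries stood apart from the other 6. Against Col-0 (LUC), rpl22 had 0.22 ± 0.26 (adjusted p = 0.671) in prors1 (LUC) and 1.06 ± 0.26 (adjusted p = 0.00479) in rls6.

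Of the 26 differences between the mutants 25 were positive, with a median of 0.30, the same as over the chloroplast protein genes outside the group, of which 11 of 52 were higher. The exception was rps19, at -0.16 (adjusted p = 0.723). The number of genes called was 5 without replicate 3 of Col-0 (LUC) or replicate 1 of prors1 (LUC), and 1 without prors1 (LUC) replicate 3 or any 1 rls6 library. Of all 4766 tested genes, 563 and 489 were called higher in the fits that gave 5, and 442 to 474 in those that gave 1. The call of accD held in each of these fits. That of rps4 was lost without prors1 (LUC) replicate 2 or 3 or any 1 rls6 library, with adjusted p of 0.0538 to 0.0931. That of rpl22 was lost without prors1 (LUC) replicate 1 or 3 or any 1 rls6 library, with adjusted p of 0.0511 to 0.126. Both were also lost with no filter (adjusted p = 0.235 for rps4 and 0.0942 for rpl22) and by DESeq2 (0.124 and 0.119), and rps4 with upper-quartile factors (0.0618) and without the trend (0.0764). No gene of the 26 was lower at an unadjusted p under 0.05 by limma, edgeR or DESeq2, while edgeR called 4 and DESeq2 1 higher. Over all tested genes edgeR called 552 and DESeq2 391 higher between the mutants. When the values were scaled to the other chloroplast protein genes, limma called 0 of the 26 in either direction, also at an unadjusted p under 0.05, and the median difference was -0.0030.

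Since most chloroplast protein genes had more small RNA in the mutants, the genes were also set against the rest of the chloroplast. The values were scaled by the summed reads of the chloroplast protein genes outside the group, of which rps18 made up 11.1%, rpl33 10.9% and rbcL 10.2%. On this scale changes are relative to the other chloroplast genes. The median of all tested genes moved to -0.73 in prors1 (LUC) and -1.05 in rls6. The shares of all tested genes called here follow from that move and are no background for a chloroplast gene. Calls among the 52 other chloroplast protein genes tested were not counted on this scale. Before this scaling, their log2 fold changes ran from -1.21 to 3.03 in prors1 (LUC) and -1.47 to 3.56 in rls6, beyond the group's range at both ends. In prors1 (LUC), 8 of the 26 were then higher and 0 lower, where 1.49% of all tested genes were higher and 67% lower. At an unadjusted p under 0.05 there was 1 lower. The median over the 26 was 0.11. The 8 were rpoB at 1.08, matK at 0.96, rps16 at 0.90, rpoC1 at 0.87, ycf2.2 at 0.81, rps14 at 0.70, rpoC2 at 0.48 and ycf2.1 at 0.41 on the log2 scale. The call of ycf2.2, which met the filter only with the mutant libraries, is a description.

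In rls6, 7 were higher and 2 lower on this scale, where 3.34% of all tested genes were higher and 82.5% lower. The median was again 0.11. The 7 were ycf2.2 at 1.18, rpoB at 1.07, matK at 0.94, rpoC1 at 0.80, rps16 at 0.71, rps14 at 0.68 and ycf2.1 at 0.44. The call of ycf2.2 is again a description. Of the lower genes, rpl23.2 had -0.68 (adjusted p = 0.0222). Over the alternatives tried, the adjusted p of the change against Col-0 (LUC) ran from 0.0162 to 0.684 for rpl23.2 in rls6. Scaling by the median ratio over the same genes, an alternative chosen after the data were seen, yielded 7 higher and 0 lower in prors1 (LUC), with 1 lower at an unadjusted p under 0.05, where 1.41% of all tested genes were higher and 69.2% lower. In rls6 it gave 7 higher and 2 lower, where 3.08% were higher and 84.1% lower. The gene rpoA, which rose on the authors' scale, had -0.11 in prors1 (LUC) and -0.26 in rls6 on the chloroplast scale and did not pass there.

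Across the 26 genes, the log2 fold changes had only weak rank correlations with GC content, exon length and level, between -0.22 and 0.37 (Spearman's rho). These describe genes that share libraries and depth and carry no test. Over the 9 libraries, the chloroplast protein genes outside the group whose log2 values were most like the group's mean were atpE, for an ATP synthase subunit (Pearson's r = 0.995), petG, for a cytochrome complex subunit (0.994), and rbcL, for the large subunit of Rubisco (0.993). The points of these correlations share genotype and depth.

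The nuclear partners of these genes had few small RNA reads. Of 9 genes for sigma factors and phage-type polymerases, 1 was tested, the sigma factor gene SIG2 (AT1G08540). It had 0 reads in the 3 Col-0 (LUC) libraries, which allows up to 3 reads over the group, and means of 23.7 ± 1.31 normalized reads for prors1 (LUC) and 13.2 ± 2.84 for rls6. It passed the filter through the mutant libraries alone, so these values are a description. Of 13 genes for polymerase-associated proteins 0 were tested, with 31 reads in all, and of 16 genes for nuclear-encoded plastid ribosomal proteins 0 were tested, with 93 reads in all. In the plastid cluster of rpl33, rps18, rpl20, the first exon of rps12 and clpP, 4 of 5 were higher in prors1 (LUC) and 5 of 5 in rls6, with medians of 0.59 and 1.11. In that cluster rpl20 had means of 37.7 ± 2.22 normalized reads for Col-0 (LUC), 314 ± 15.25 for prors1 (LUC) and 454 ± 9.65 for rls6.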

How the data were processed

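The authors deposited 1 table of 37336 genes with a column of signal values for each library, which are gene counts after division by the size factor of the library. Per the submitters' processing notes, the tools were Bowtie2, featureCounts, Trimmomatic and FastQC, on TAIR10. How strand and reads with several places were handled is not given in the sources used here. Each value was a whole multiple of 1 read within 1e-06, so whole reads were recovered for 100% of values, 611238 to 702303 per library.

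Libraries were grouped by title and genotype label. Log2(normalized reads + 1) values were tested with limma 3.58.1 in R 4.3.3, with a trend of variance on the mean and genotype alone as a term over the 9 libraries. It covered 4766 genes that reached 10 normalized reads in 3 or more libraries, with Benjamini-Hochberg adjustment over all of them and a threshold of 0.05. This scale makes fold changes of genes with few reads too small. Alternatives were other pseudocounts, filters and scalings, a fit without trend, a replicate block, summed copies, each library left out, and edgeR 4.0.16 and DESeq2 1.42.0 on the recovered reads. Data for prors1 (LUC) and Col-0 (LUC) were simulated, with 4623 genes past the filter. The limma fit recovered 42% of genes changed 1.5-fold, 74% at 2-fold, 96% at 4-fold and 98% at 8-fold. It called 0.135% of unchanged genes. The changes were given to 50 genes at each fold, drawn over all levels, so the rates are not those of genes with few reads.

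Values per library are given for the 3 genes with most reads per kb, for the genes with the largest and smallest log2 fold change of each role class in each mutant, and for genes called between the mutants. The other genes in the text (rpl2.2, rpl14, rpl36, rps3, rps7.2, rps12B, rps19, rpoC1, rpoC2, ycf1.2, ycf2.1) complete the account of the group. Values of some genes are not reported here, while counts, sums and medians cover the whole group. The genes and lists were chosen with earlier results of these data known. Gene names are the standard names of the locus identifiers, which the table does not give. Positions, exon lengths and sequences are from the RefSeq TAIR10.1 chloroplast sequence, in which all 33 have a gene. The identifiers were matched to it by name, and 82 of 82 neighbouring identifiers lay in its order.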

Additional observations from a re-analysis of the deposited data

How the results depend on the processing

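With pseudocounts of 0.5 and 4, TMM and upper-quartile factors, no filter, summed copies and edgeR, the counts of genes called higher in each mutant against Col-0 (LUC) stayed within 1.5 times the reported ones, and no log2 fold change of a tested gene against Col-0 (LUC) turned its direction. Without the trend, 13 genes were higher in prors1 (LUC) instead of 20, while the higher calls over all tested genes went from 369 to 233. With a mean of at least 30 normalized reads as the filter, the median in rls6 was 1.41, over fewer genes. Between the mutants, 6 genes were higher in place of 3 when only those 6 libraries were fitted, and DESeq2 gave 1. Over all tested genes the higher calls were 571 with only those libraries, 556 in the main fit and 391 by DESeq2. Over the values of the single genes reported, under the alternatives, 1037 kept their direction and call, 97 kept the direction and lost the call, 2 gained a call and 38 changed sign.

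Leaving out each library in turn gave 16 to 19 genes higher in prors1 (LUC), 23 to 24 in rls6 and 1 to 5 between the mutants, with medians of 0.71 to 0.97, 1.05 to 1.27 and 0.15 to 0.41. Of all 4766 tested genes, those fits called 279 to 427, 493 to 638 and 442 to 576 higher, in the same order. With the replicate number as a block, 21 and 24 genes were higher in the mutants and 5 between them. Over all tested genes in prors1 (LUC), the block moved the calls from 369 higher and 316 lower to 452 and 373. With the block, 660 of all tested genes were higher in rls6 and 610 between the mutants, against 605 and 556 in the main fit. The correlations of same-numbered libraries' deviations lay between -0.018 and 0.153. Those of differently numbered libraries lay between -0.124 and 0.032. Whether the numbers pair the libraries was not settled by these values.

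With scaling by the summed reads of the other chloroplast protein genes, 8 genes were higher in prors1 (LUC) (median 0.11), 7 higher and 2 lower in rls6 (median 0.11), and 0 between the mutants (median -0.0030). The log2 fold changes below 0 included, in prors1 (LUC), cemA -0.097, rpoA -0.11, rps3 -0.24, rpl22 -0.50, ccsA -0.20, ycf1.2 -0.056, rps12B -0.025, rpl23.2 -0.54 and rpl2.2 -0.15, and in rls6, cemA -0.097, rpoA -0.26, rps3 -0.015, rps19 -0.13, ccsA -0.21, ycf1.2 -0.0087, rpl23.2 -0.68 and rpl2.2 -0.023. With scaling by the median ratio over those genes, chosen after seeing the data, 7 genes were higher in prors1 (LUC) (median 0.081), 7 higher and 2 lower in rls6 (median 0.062), and 0 between the mutants (median -0.029). The log2 fold changes below 0 included, in prors1 (LUC), accD -0.0198, cemA -0.12, rpoA -0.14, rpl36 -0.0012, rps3 -0.26, rpl22 -0.52, ccsA -0.22, ycf1.2 -0.081, rps12B -0.049, rpl23.2 -0.56 and rpl2.2 -0.18, and in rls6, cemA -0.15, rpoA -0.31, rpl14 -0.0084, rps3 -0.065, rpl22 -0.0045, rps19 -0.18, ccsA -0.26, ycf1.2 -0.0603, rpl23.2 -0.73 and rpl2.2 -0.074. Both scalings set the other chloroplast genes near 0 by construction.

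The limits are depth and assignment. The 7 untested genes allow no statement on change. Copies of the inverted repeat, strand, and sequence shared with other chromosomes could not be resolved from counts per gene. With 3 libraries per genotype, a p that misses the threshold does not show that a level was the same.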
